A study of Mus musculus with 4 samples.

Results

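A set of 10 genes of cytotoxic lymphocytes was followed through the immune cells of the mouse liver. It holds the granzymes Gzma, Gzmb and Gzmk, the pore-forming protein gene Prf1, the granule membrane protein gene Nkg7, the interferon gamma gene Ifng, and the Ly49 receptor genes Klra4, Klra7, Klra8 and Klra9. The genes were taken by symbol, and all 10 were present among the 27998 genes of the deposited tables. Single cells of C57BL/6J livers were profiled by droplet RNA sequencing (10x Genomics), in 2 libraries from mice fed the Amylin liver NASH model diet and 2 from mice on a control diet. NASH is nonalcoholic steatohepatitis, a fatty and inflamed state of the liver. In both groups the non-parenchymal cells had been sorted as CD45+ CD146-, the surface profile of leukocytes without endothelial cells, so the sort sets which lymphocytes could be seen. In both groups the livers had also been digested in the presence of flavopiridol, which blocks transcription. The labels give neither age nor sex, and do not state whether the libraries are of separate mice. P-values therefore cover the spread between these samples alone, and that spread may be technical.

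Natural killer (NK) cells and CD8 T cells kill by releasing granules onto a target. Perforin, the product of Prf1, lets the granzymes enter, and the granzymes cut proteins inside the target cell. Ly49 proteins are lectin-like receptors of mouse NK cells that read MHC class I molecules: the inhibitory ones hold the cell back, and the activating ones signal through adaptor proteins. The liver also houses type 1 innate lymphoid cells (ILC1), which share Ncr1 with NK cells, make interferon gamma and are known for lower levels of several Ly49 receptors.

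The promoters of 6 of the genes are shown because the Ly49 genes are near copies of one another in one cluster and the granzyme genes lie elsewhere. Likeness of promoters does not show which counts share reads, for which the transcript ends are compared further below. RefSeq windows (build GRCm38.p6, the mm10 assembly) of 250 bases before to 50 bases after the annotated start were matched for 10 of 10 genes. Each is printed 5′ to 3′ on the strand of its gene, which is the minus strand for all 6. Gzma is at chr13:113100932-113101231, Gzmb at chr14:56262285-56262584, Klra4 at chr6:130067222-130067521, Klra8 at chr6:130129849-130130148, Klra7 at chr6:130233273-130233572 and Klra9 at chr6:130193063-130193362. Capitals mark matches to 4 motifs on either strand (T-box GGTGTG, Runx TGTGGT, AP-1 TGANTCA, STAT TTCNNNGAA) and, in the Ly49 windows, the runs of at least 10 bases that all 4 windows share.
Gzma: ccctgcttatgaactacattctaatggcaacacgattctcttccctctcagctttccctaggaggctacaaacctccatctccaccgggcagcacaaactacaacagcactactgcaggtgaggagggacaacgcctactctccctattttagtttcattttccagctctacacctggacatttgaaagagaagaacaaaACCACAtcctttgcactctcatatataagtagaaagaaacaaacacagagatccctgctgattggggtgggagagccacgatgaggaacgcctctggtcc
Gzmb: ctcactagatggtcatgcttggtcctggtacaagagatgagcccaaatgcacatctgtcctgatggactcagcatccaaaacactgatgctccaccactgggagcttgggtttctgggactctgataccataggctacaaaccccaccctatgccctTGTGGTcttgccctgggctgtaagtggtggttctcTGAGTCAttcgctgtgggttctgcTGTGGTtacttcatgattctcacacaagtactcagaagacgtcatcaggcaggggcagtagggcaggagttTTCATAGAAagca
Klra4: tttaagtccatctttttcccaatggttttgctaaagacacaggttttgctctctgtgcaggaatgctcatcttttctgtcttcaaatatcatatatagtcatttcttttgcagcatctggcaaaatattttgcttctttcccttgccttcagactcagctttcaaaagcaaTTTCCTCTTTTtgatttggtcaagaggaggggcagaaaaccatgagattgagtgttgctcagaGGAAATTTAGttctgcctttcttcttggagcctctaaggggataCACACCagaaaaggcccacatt
Klra8: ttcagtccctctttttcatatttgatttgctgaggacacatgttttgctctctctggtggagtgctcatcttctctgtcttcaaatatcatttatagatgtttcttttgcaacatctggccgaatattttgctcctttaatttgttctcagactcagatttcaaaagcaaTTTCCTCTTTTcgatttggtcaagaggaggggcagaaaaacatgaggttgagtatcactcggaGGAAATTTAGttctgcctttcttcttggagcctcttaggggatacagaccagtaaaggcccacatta
Klra7: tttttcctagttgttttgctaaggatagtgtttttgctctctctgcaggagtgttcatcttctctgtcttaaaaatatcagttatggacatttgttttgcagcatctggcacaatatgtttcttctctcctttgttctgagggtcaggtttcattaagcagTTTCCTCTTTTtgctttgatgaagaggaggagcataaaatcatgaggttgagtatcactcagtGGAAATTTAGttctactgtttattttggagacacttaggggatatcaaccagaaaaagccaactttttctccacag
Klra9: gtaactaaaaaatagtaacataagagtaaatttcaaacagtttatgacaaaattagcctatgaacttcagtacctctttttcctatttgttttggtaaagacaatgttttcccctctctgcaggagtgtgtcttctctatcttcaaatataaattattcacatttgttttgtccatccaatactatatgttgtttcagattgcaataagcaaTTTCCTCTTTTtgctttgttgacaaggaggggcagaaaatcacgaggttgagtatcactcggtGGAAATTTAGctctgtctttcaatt

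The Gzma window held 1 Runx match, read on the other strand as ACCACA. The Gzmb window held 2 Runx matches, 1 AP-1 match and 1 STAT match. Among the Ly49 windows Klra4 held 1 T-box match and Klra7, Klra8 and Klra9 held none of the 4 motifs. Of 32851 RefSeq promoters, 19.05% held the T-box letters, 16.76% the Runx letters, 7.81% the AP-1 letters and 8.3% the STAT letters, so such matches are common and are a description only. The runs shared by the 4 Ly49 windows, TTTCCTCTTTT and GGAAATTTAG, were held by 0.149% and 0.085% of the same promoters. Aligned in pairs, the Ly49 windows were 70.8% (Klra4 and Klra9) to 86.6% (Klra4 and Klra8) identical.

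In GENCODE vM21 the 4 Ly49 genes are protein-coding genes on the minus strand of chromosome 6 within 189.6 kb, in the order Klra4 (chr6:130043731-130067271), Klra8 (chr6:130115226-130129898), Klra9 (chr6:130178675-130193112) and Klra7 (chr6:130218605-130233322). Gzma (chr13:113093825-113100981) and Gzmk (chr13:113171608-113225908) are neighbours on chromosome 13. The RefSeq start of the promoter window lay 44943 bases from the GENCODE start for Gzmk, whose window is not printed, and 74 for Gzmb. The near-copies bear on the counts themselves. Of the 451 windows of 50 bases in the last 500 bases of the longest transcript, 44.8% for Klra9, 27.5% for Klra7, 13.1% for Klra8 and 4.66% for Klra4 were also found in a transcript of another gene. None were for the 6 other genes. Reads from such stretches could be split or dropped by the authors' counting, so each Ly49 value carries that uncertainty, most for Klra9, 132 of whose windows also matched Klra3.

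The deposited barcodes numbered 1639 and 1933 in the NASH libraries and 1550 and 1805 in the control libraries, with 13749657 and 15619962 UMIs (unique molecular identifiers, one per captured transcript) against 5513953 and 5684819. After filters 1572 and 1859 NASH cells and 1307 and 1420 control cells were kept, with median depths of 7584.5 and 7417 against 3381 and 3049.5 UMIs. Pairs of libraries shared 2 to 8 barcodes. Clusters were drawn and named without the 10 genes. The cluster led by Ncr1, Xcl1 and Klrb1c, called NK cell or ILC1-like, held 33 and 39 NASH cells and 6 and 20 control cells. The cluster led by Cd3d, Cd3g and Cd3e, called T cell-like, held 47 and 54 NASH cells and 11 and 29 control cells. In these lymphocytes the depth gap was smaller, with medians of 3399 and 3611 against 2918 and 1926.5 UMIs in NK cell or ILC1-like cells and 3080 and 3041 against 3303 and 2445 in T cell-like cells. Shares of cells with a UMI are given after thinning each cell to 1000 UMIs, as the expected share. Levels are given in CPM, the UMI count of a gene scaled to the total UMIs of its class and library. Intervals and limits cover counting error only.

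The 10 genes gave 5177 UMIs in 585 of the 6158 kept cells. NK cell or ILC1-like cells held most of the UMIs of Gzma (61.4% of 1398), Gzmb (58.4% of 461), Klra8 (57.9% of 107), Klra4 (56.4%) and Klra7 (55.6% of 133). They held 45.5% of the 22 Prf1 UMIs, 39.3% of the 28 Ifng UMIs, 39.1% of the 115 Klra9 UMIs and 34.7% of the 2741 Nkg7 UMIs. Gzmk was the exception, with 53.5% of its 71 UMIs in T cell-like cells and none in NK cell or ILC1-like cells. Another source was an unnamed cluster of 162 droplets that carried C1q genes of macrophages together with T cell genes. It held 36.6% of the Klra4, 31.0% of the Gzmk and 19.5% of the Gzma UMIs.

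**Figure D1:**
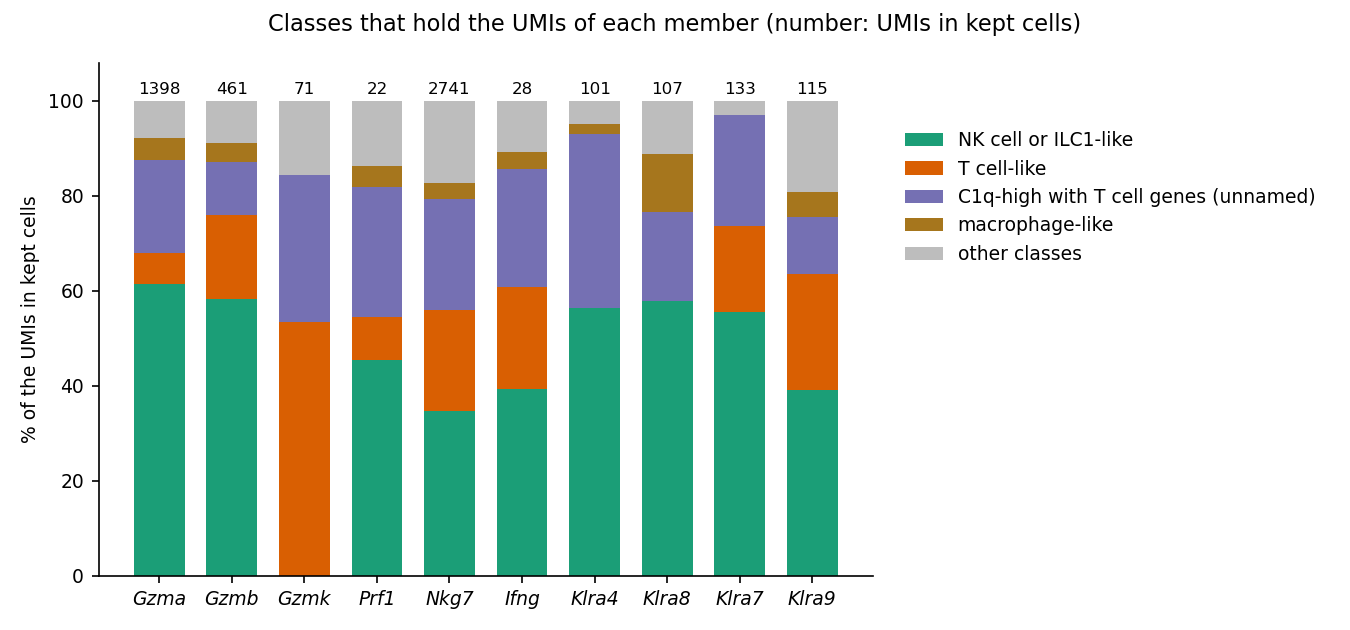
Share of the UMIs of each gene (vertical axis, % of the UMIs in kept cells of all 4 libraries) by cell class, with the number of UMIs above each bar. NK cell or ILC1-like cells hold 61.4% of the Gzma UMIs and none of the Gzmk UMIs, which lie in T cell-like cells (53.5%) and the C1q-high cluster (31.0%).

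Among the 11 classes with at least 5 cells in every library, NK cell or ILC1-like cells had the highest mean level of 9 genes and T cell-like cells that of Gzmk, as a description of clusters drawn from the same cells. Nkg7 averaged 3079 ± 587 CPM in NK cell or ILC1-like cells, 1037 ± 397 in T cell-like cells and 139 ± 33.0 in endothelial-like cells (SD, n = 4 libraries). Those 3 ranges did not overlap. Gzma averaged 3116 ± 1917 CPM in NK cell or ILC1-like and 163 ± 146 in T cell-like cells. The next class, plasma cell-like, had 56.2 ± 88.4, which did not differ from the T cell-like level beyond the spread.

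In granzymes, the first comparison asked how NASH and control livers differed in NK cell or ILC1-like cells. Gzma encodes granzyme A, a tryptase of NK cells. It had 435 and 148 UMIs (3447 and 951 CPM) in the NASH libraries and 44 and 232 UMIs (2527 and 5540 CPM) in the control libraries. The levels overlapped, and the log2 fold change of -0.997 (SE 1.004) did not pass the edgeR quasi-likelihood F test (Benjamini-Hochberg adjusted p = 0.768).

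The number of cells gave a different picture of Gzma from the sum. A UMI of Gzma was found in 1 of 33 and 12 of 39 NASH cells and in 5 of 6 and 17 of 20 control cells. Thinned, these were 3.03% and 26.9% of NASH cells and 76.7% in each control library. Both NASH shares lay below both control shares. Exact 95% intervals of the larger libraries were 13.04% to 42.1% in NASH 2 and 50.9% to 91.3% in control 2. They cover counting error among the cells of a library and not the spread between libraries. In B cell-like cells, a class that should lack the gene, Gzma was in 0 NASH cells and 1 control cell.

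All 435 Gzma UMIs of NASH 1 lay in 1 cell of 8902 UMIs, where they were 4.89% of its transcripts. That cell also held 58 Nkg7, 5 Klra9 and 2 Gzmb UMIs. The other 32 cells of NASH 1 held 0 Gzma UMIs, which allows a level of up to 25.6 CPM. Without that cell the log2 fold change was -3.07 (SE 1.74, adjusted p = 0.556 in the same edgeR test), an alternative chosen after the data had been seen. A fit without 1 library leaves that diet with a single library, which is assumed to vary like the libraries of the other diet, here and wherever a library is left out. Gzma passed the test as lower without the NASH 1 library (-2.16, adjusted p = 1.2e-11) and without the control 1 library (-1.31, adjusted p = 5.35e-07). It did not pass without NASH 2 (-0.36, adjusted p = 0.810), and without control 2 the difference was near 0 (-0.017, adjusted p = 0.997). Its size and its call thus depended on which libraries entered. A test on numbers of thinned cells, also chosen after the data had been seen, gave a log2 ratio of shares of -2.29 (SE 0.610) with an unadjusted p of 0.00961 in the edgeR quasi-likelihood F test. It was not called after adjustment (0.978), and neither was any of the 2486 genes in that test, of which 53 had an unadjusted p under 0.05.

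**Figure D2:**
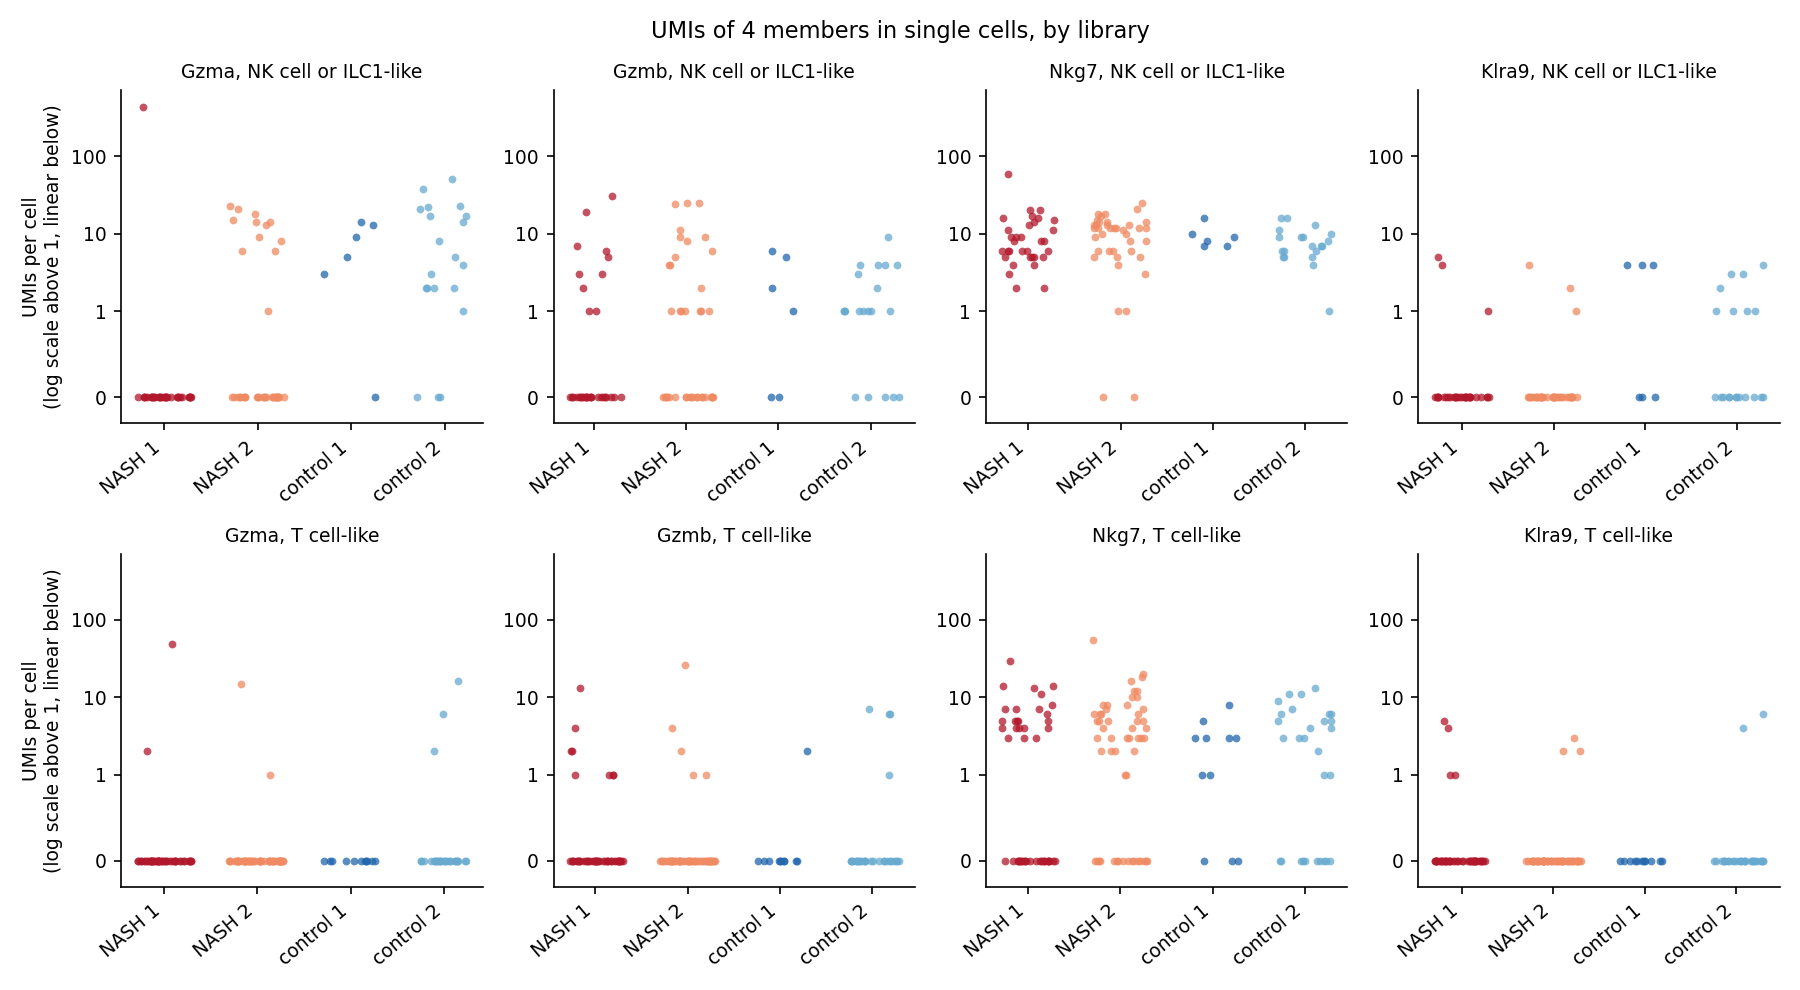
UMIs of Gzma, Gzmb, Nkg7 and Klra9 per cell (vertical axis, logarithmic above 1 and linear below) in NK cell or ILC1-like cells (top) and T cell-like cells (bottom) of the NASH and control libraries; each point is a cell. In NK cell or ILC1-like cells of NASH 1 a single cell at 435 UMIs carries all Gzma, while 17 of 20 cells of control 2 carry it.

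Gzmb encodes granzyme B, which cleaves caspases. It had 78 and 139 UMIs (618 and 893 CPM) in NK cell or ILC1-like cells of the NASH libraries and 14 and 38 UMIs (804 and 907 CPM) in those of the control libraries. The levels overlapped (log2 fold change -0.21, SE 0.275, adjusted p = 0.798 edgeR quasi-likelihood F test, Benjamini-Hochberg). The thinned shares of cells, 20.9% and 31.0% in NASH and 49.9% and 53.4% in control, did not overlap, and their log2 ratio of -1.015 was not called (adjusted p = 0.978). Gzmk, granzyme K, had 0 UMIs in all 98 NK cell or ILC1-like cells. A count of 0 allows up to 23.8 and 19.3 CPM in the NASH libraries and 172 and 71.6 in the control libraries.

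Gzma and Gzmb met in the same cells. Of the 98 NK cell or ILC1-like cells, 27 held both, where the product of the 2 shares gives 17.1. That number and the others of its kind are descriptions, since deeper cells hold more of every gene. The shares are also pooled over libraries that differ in them, which by itself can lift the joint count above the product.

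Of the killing machinery beside the granzymes, Nkg7 was in nearly every NK cell or ILC1-like cell. It had 338 and 396 UMIs (2679 and 2543 CPM) in the NASH libraries and 57 and 160 UMIs (3273 and 3820 CPM) in the control libraries, in 33 of 33 and 37 of 39 cells against 6 of 6 and 20 of 20. The thinned background in B cell-like cells was 4.16% and 1.71% in NASH and 0% and 0.928% in control. Both NASH levels lay below both control levels, by a log2 fold change of -0.48 (SE 0.175) that did not pass the edgeR quasi-likelihood F test (Benjamini-Hochberg adjusted p = 0.159). Prf1, perforin, was near the detection limit with 3 and 6 UMIs in NASH and 1 and 0 UMIs in control. Ifng, the signature cytokine of ILC1 and NK cells, had 5 and 2 UMIs in NASH and 0 and 4 in control. Prf1, Ifng and Gzmk failed the filter on low counts and were not tested. A difference in these 3 genes was not detectable at this depth.

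**Figure D3:**
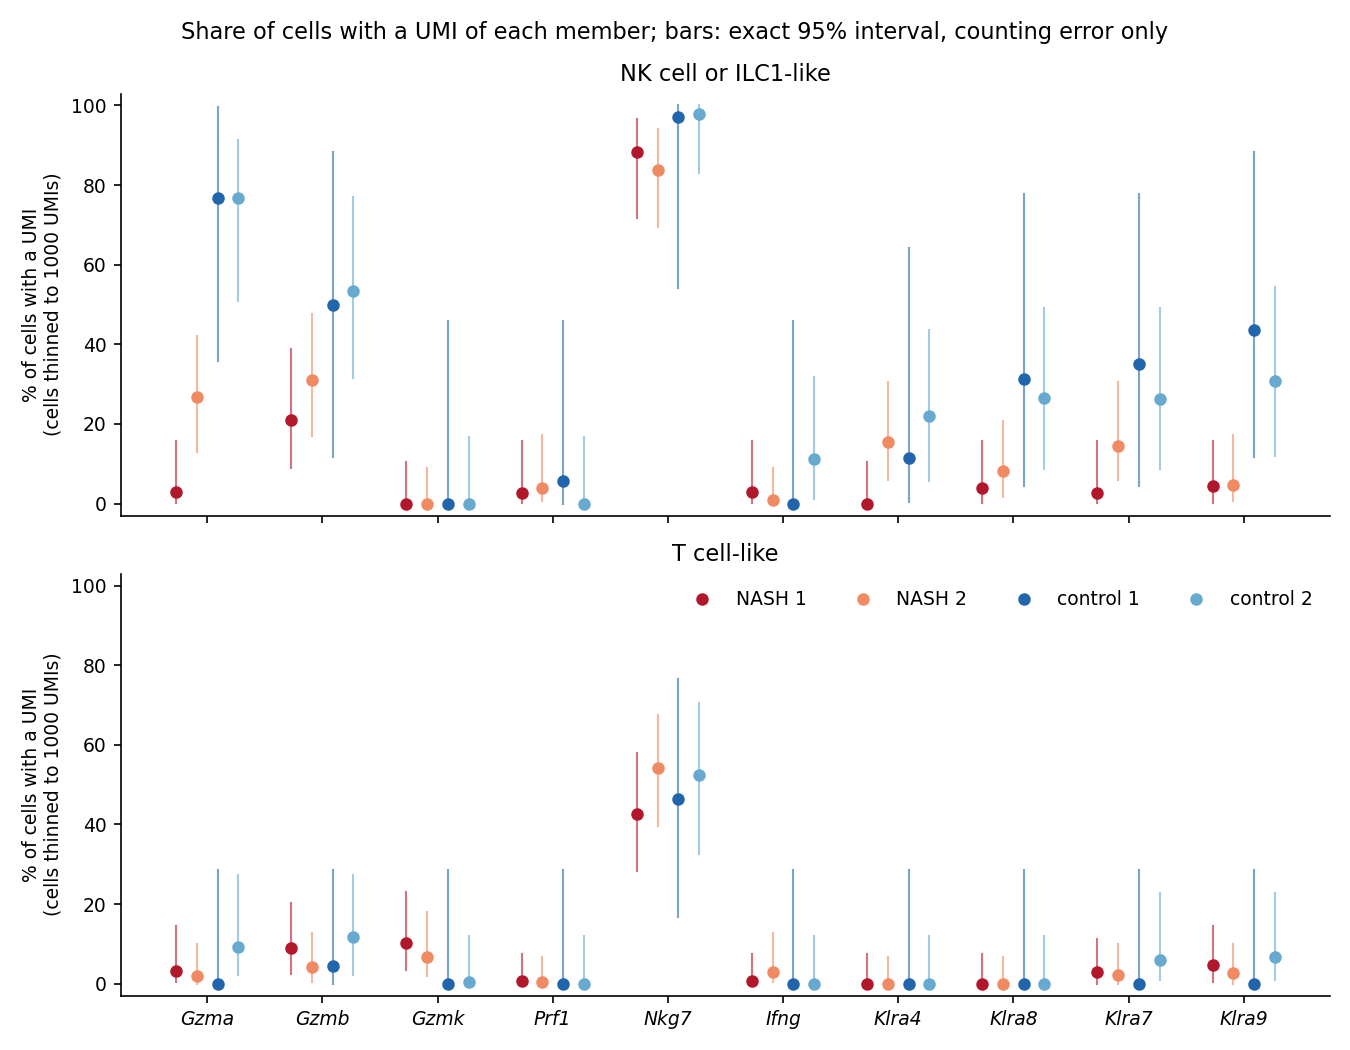
Expected share of cells with a UMI of each gene after thinning to 1000 UMIs (vertical axis, %), for NASH and control libraries; bars are exact 95% intervals for counting error. In NK cell or ILC1-like cells Nkg7 is at 83.7% or above in all 4 libraries, while Gzma is at 3.03% and 26.9% in NASH and 76.7% in control.

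Of the Ly49 receptors, edgeR called Klra8 and Klra9 lower in NK cell or ILC1-like cells of NASH livers. Klra4 and Klra7 did not pass the test. Across all genes of this comparison, edgeR called 3.2% (35 of 1094), and 2.29% were called lower. By name, 10 of the 25 genes called lower and 4 of the 10 called higher were ribosomal, mitochondrial, Gm-numbered or Rik genes. The median log2 fold change was -1.44 over the 4 Ly49 genes and -0.48 over the 3 tested granule genes, against -0.01 over all genes tested. Only 25 and 124 Ly49 UMIs in NASH and 30 and 59 in control stand behind the 4 genes. A gene entered the test when at least 2 libraries reached 119 CPM. Klra9 reached it in 0 NASH and 2 control libraries, so it entered only through the diet in which it is higher, and Klra7 and Klra8 reached it in 1 NASH and 2 control libraries. The median over the Ly49 genes includes these genes and is a description only.

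Klra8 encodes Ly49H, an activating receptor known for recognising a cytomegalovirus protein. It had 8 and 25 UMIs (63.4 and 161 CPM) in the NASH libraries and 11 and 18 UMIs (632 and 430 CPM) in the control libraries. Both NASH levels lay below both control levels, with a log2 fold change of -2.10 (SE 0.438, adjusted p = 0.00452 edgeR quasi-likelihood F test, Benjamini-Hochberg). The UMIs came from 2 and 5 NASH cells and 2 and 6 control cells. The call was lost without the low-count filter (adjusted p = 0.0785), with classes set cell by cell (0.122) and in the test on numbers of cells (log2 ratio -2.18, adjusted p = 0.978). It was also lost without the NASH 1 library (log2 fold change -1.62, adjusted p = 0.114), and the adjusted p was 0.00239 without NASH 2, 0.0120 without control 1 and 0.0125 without control 2.

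Klra9 encodes Ly49I, an inhibitory receptor. It had 10 and 7 UMIs (79.3 and 44.96 CPM) in the NASH libraries and 12 and 16 UMIs (689 and 382 CPM) in the control libraries. The groups did not overlap, with a log2 fold change of -2.98 (SE 0.466, adjusted p = 0.000123 in the same edgeR test). With every gene that has a UMI tested, and so no filter to enter by, it was -2.47 (adjusted p = 0.00192). With 1 library left out, which leaves 1 diet without a spread of its own, the adjusted p was 0.000159 to 0.00856. It was not called cell by cell (0.136) or in the test on numbers of cells (log2 ratio -2.91, adjusted p = 0.978). Thinned, 4.31% and 4.58% of NASH cells and 43.6% and 30.9% of control cells held a Klra9 UMI.

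Klra4 encodes Ly49D, an activating receptor that signals through the adaptor DAP12. It had 0 and 44 UMIs (0 and 283 CPM) in the NASH libraries and 1 and 12 UMIs (57.4 and 287 CPM) in the control libraries. The spread within each diet was as large as that between them (log2 fold change -0.51, SE 2.25, adjusted p = 0.970 edgeR quasi-likelihood F test, Benjamini-Hochberg). Klra7, Ly49G, an inhibitory receptor, had 7 and 48 UMIs (55.5 and 308 CPM) in the NASH libraries and 6 and 13 UMIs (345 and 310 CPM) in the control libraries. Its NASH levels lay below its control levels, though NASH 2 lay within counting error of both control libraries, and it was not called (-0.77, SE 0.827, adjusted p = 0.743). The difference was -2.53 without NASH 2 and -0.051 without NASH 1, so 1 library decides its size. All 7 Klra7 UMIs of NASH 1 were in 1 cell.

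As one set, at least 1 Ly49 gene was found in 4 of 33 and 11 of 39 NASH cells and in 4 of 6 and 12 of 20 control cells. Thinned, the shares averaged 15.9% ± 11.2 in NASH and 58.0% ± 5.17 in control (SD, n = 2 each). The diets did not overlap, and an exact permutation test of 2 libraries against 2 cannot go below p = 0.333. Of the 72 NASH cells 57 held none of the 4 genes and 0 held all 4. Of the 26 control cells 10 held none and 2 held all 4.

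**Figure D4:**
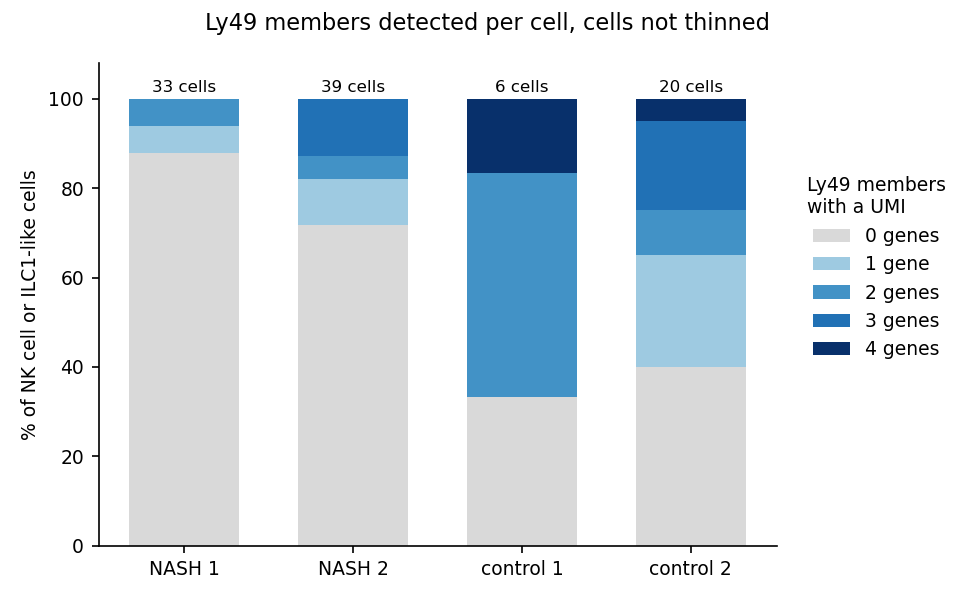
Share of NK cell or ILC1-like cells (vertical axis, %) with a UMI of 0 to 4 of the Ly49 genes in each NASH and control library, cells not thinned. Cells without any of the 4 genes are 57 of 72 in NASH and 10 of 26 in control.

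The Ly49 genes were found together in the same cells more often than the product of their shares, again pooled over libraries that differ in those shares. Klra4 was in 14 of the 98 cells, Klra8 in 15 and Klra7 in 18. Klra4 and Klra8 met in 11 cells, against 2.14 from the product of the shares. Klra4 met Klra7 in 11 cells, against 2.57, and Klra7 met Klra8 in 12, against 2.76. Klra9 stood further from the others, meeting Klra4 and Klra8 in 4 cells each, against 2.43 and 2.60, and Klra7 in 6, against 3.12. Gzma was in 11 of the Klra4 cells, 14 of the Klra7 cells, 11 of the Klra8 cells and 12 of the Klra9 cells.

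Cells of the cluster were split by UMIs of NK cell markers such as Eomes, Itga2 and S1pr5 and of ILC1 markers such as Itga1, Tnfsf10, Cxcr6 and Tmem176a. Tmem176a was itself called higher in NASH in this class, at 317 and 193 CPM against 0 and 23.9 in control. Its adjusted p was 0.0119 (edgeR quasi-likelihood F test, Benjamini-Hochberg), and its part in the split was not tested. Cells with ILC1 marker UMIs only were 25 of 33 and 20 of 39 in the NASH libraries and 3 of 6 and 9 of 20 in the control libraries. Cells with NK cell marker UMIs only were 0 and 2 in NASH and 1 and 4 in control, and all 7 held both Gzma and a Ly49 UMI. Among the ILC1-marker-only cells, Gzma was in 0 of 25 and 0 of 20 in NASH and 2 of 3 and 7 of 9 in control. A Ly49 gene was in 2 and 3 of those NASH cells and in 1 and 4 of those control cells. Among cells with both kinds of marker, Gzma was in 1 of 8 and 10 of 17 in NASH and 1 of 1 and 5 of 6 in control, and a Ly49 gene in 2 and 6 against 1 and 3. These are counts of few cells at unequal depth, no difference in them was tested, and a missing marker UMI does not show that a cell lacks the gene.

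Markers of other cell types were also found in the same sums, and they ran in both directions. T cell markers summed to 269 and 161 CPM in NASH, with 7 of 14 markers found in each library, and to 1551 and 692 in control, with 4 and 6 of 14. Cd4 and Cd8b1 were at 0 in all 4 libraries. Cd3g, a marker in the T cell sum, was at 174 and 51.4 CPM in NASH and 1091 and 478 in control. It made up most of that sum in NASH 1 and in both control libraries, and was among the genes called lower. Macrophage markers summed to 959 and 610 CPM in NASH, with 14 of 18 found in each library, and to 1493 and 1600 in control, with 9 and 12 of 18. Vsig4, a gene of the macrophage list, was called lower in NASH, at 47.6 and 19.3 CPM against 172 and 143 in control. Its adjusted p was 0.0489 (edgeR quasi-likelihood F test, Benjamini-Hochberg), and it reached the 119 CPM of the low-count filter in control alone. Apoe and Cd74, outside that list and expressed by macrophages and antigen-presenting cells, were called higher in NASH. Apoe, a lipid carrier, was at 2401 and 1760 CPM in NASH and 1263 and 716 in control (adjusted p = 0.0106 in the same edgeR test). Cd74, the MHC class II invariant chain, was at 1308 and 918 CPM in NASH and 287 and 167 in control (adjusted p = 0.000123). Malat1, a nuclear RNA, made up 3.14% and 2.25% of the UMIs in NASH and 3.95% and 5.09% in control. The part of these values in the Ly49 and Gzma results was not tested.

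**Figure D5:**
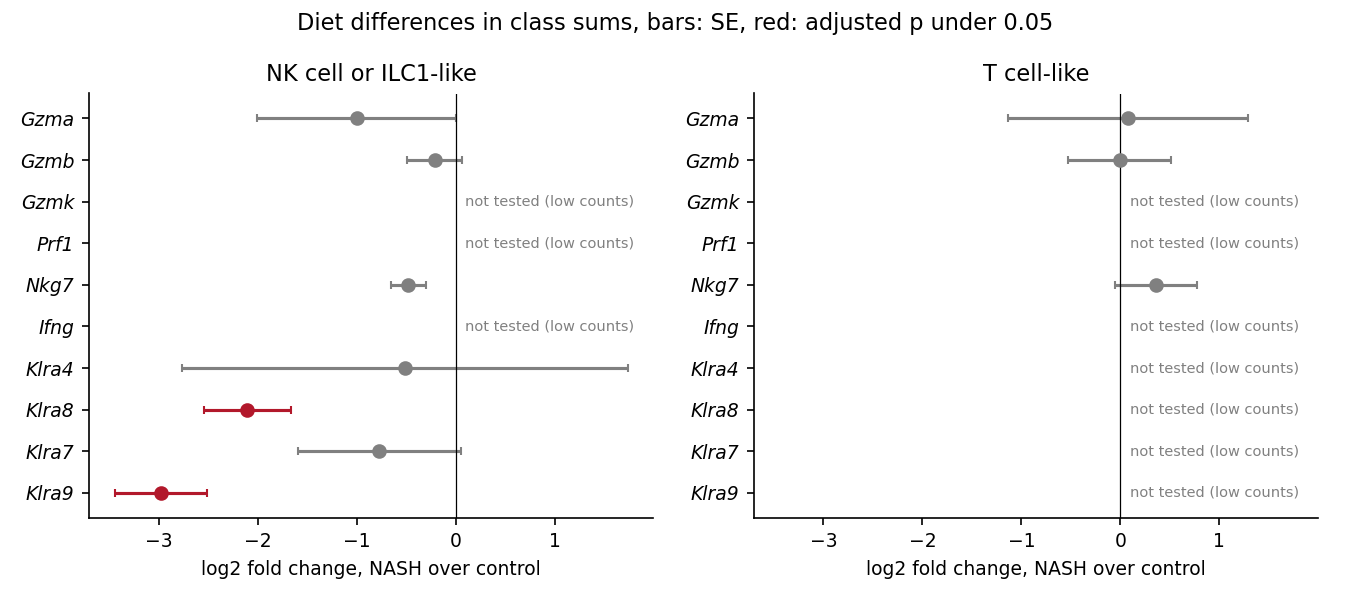
Log2 fold change, NASH over control (horizontal axis), of each gene in sums of NK cell or ILC1-like cells (left) and T cell-like cells (right); bars are standard errors, red marks an adjusted p under 0.05, and genes that failed the low-count filter are named as not tested. Klra8 (-2.10) and Klra9 (-2.98) are the genes marked in NK cell or ILC1-like cells, and none is marked in T cell-like cells.

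In T cell-like cells the second comparison asked about the same genes by diet. edgeR called 1.18% of the genes tested there (20 of 1698, with 0.236% higher and 0.942% lower) and 0 of the 3 members tested, of which 0 had an unadjusted p under 0.05. By name, 12 of the 16 genes called lower and 0 of the 4 called higher were ribosomal, mitochondrial, Gm-numbered or Rik genes. Nkg7 had 170 and 282 UMIs (937 and 1414 CPM) in NASH and 27 and 105 UMIs (523 and 1275 CPM) in control. The levels overlapped (log2 fold change 0.36, SE 0.411, adjusted p = 0.848 edgeR quasi-likelihood F test, Benjamini-Hochberg). Gzma had 51 and 16 UMIs in NASH, of which 49 and 15 lay in 1 cell of each library, and 0 and 24 UMIs in control (0.08, SE 1.21, adjusted p = 0.994). Gzmb had 25 and 34 UMIs in NASH and 2 and 20 in control (-0.01, SE 0.520, adjusted p = 1.00). Without the control 2 library the 11 cells of control 1 are the whole control group. Nkg7 was then called higher (1.29, adjusted p = 0.000216 in the same edgeR test). Gzma was called too (adjusted p = 0.00526), but against 0 control UMIs, so its fitted size is no measure of the difference.

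Gzmk, the granzyme with most of its UMIs in T cell-like cells, was less abundant there than Gzma and Gzmb, with 38 UMIs against 91 and 81. It had 23 and 14 UMIs (127 and 70.2 CPM) in the NASH libraries and 0 and 1 UMI (0 and 12.1 CPM) in the control libraries. Both NASH levels lay above both control levels. The UMIs came from 9 of 47 and 9 of 54 NASH cells and 0 of 11 and 1 of 29 control cells, or 10.1% and 6.61% against 0% and 0.401% when thinned. Summed by diet, 37 UMIs against 1 gave a ratio per UMI of 13.02, with an exact 95% interval of 2.20 to 528 for counting error. The gene failed the filter on low counts in this class and has no test on UMIs. In the test on numbers of thinned cells it entered with 5 and 4 cells in NASH and 0 and 0 in control, so only through NASH, and it was not called (adjusted p = 0.998, again in the edgeR quasi-likelihood F test, Benjamini-Hochberg). B cell-like cells, which should lack the gene, held 1 Gzmk UMI in NASH and 0 in control, at medians of 5478 and 5373 against 3343 and 2748.5 UMIs.

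Within the T cell-like cells Gzmk lay mainly beside CD8 transcripts. Of the 28 NASH cells with a Cd8a or Cd8b1 UMI and no Cd4 UMI, 12 held Gzmk, 27 Nkg7, 6 Gzmb and 2 Gzma. Of the 17 NASH cells with a Cd4 UMI and no CD8 UMI, 2 held Gzmk, 6 Nkg7, 1 Gzmb and 0 Gzma. The control libraries had 4 and 8 such cells, too few for a comparison. Cd8b1 itself was higher in the T cell-like sums of NASH, at 38 and 68 UMIs (209 and 341 CPM) against 1 UMI in each control library (19.4 and 12.1 CPM). It was called (adjusted p = 0.00633 edgeR quasi-likelihood F test, Benjamini-Hochberg), having passed the low-count filter through NASH alone. Its part in the Gzmk difference was not tested. Of the 19 cells with Gzmk, 18 also held Nkg7, and 7 held Gzmb, against 2.43 from the product of the shares.

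T cell-like cells carried UMIs of the inhibitory Ly49 genes, while the activating ones were at 0. Klra4 and Klra8 had 0 UMIs in all 4 libraries, which allows up to 16.5 and 15.0 CPM in NASH and 58.1 and 36.4 in control. Klra7 had 7 and 5 UMIs in NASH and 0 and 12 in control, and Klra9 had 11 and 7 in NASH and 0 and 10 in control. These overlapped, and all 4 genes failed the filter on low counts. At least 1 Ly49 gene was found in 5.63% and 4.86% of thinned NASH cells and 0% and 10.2% of control cells, against 0.412% and 0.530% of NASH and 0% and 1.05% of control B cell-like cells. Prf1 had 1 UMI in each NASH library and 0 in each control library, and Ifng had 1 and 5 UMIs in NASH and 0 in each control library.

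The difference between the classes was tested itself. The diet difference of NK cell or ILC1-like cells less that of T cell-like cells was -2.37 on the log2 scale for Klra9 (SE 0.896, adjusted p = 0.633), -1.14 for Gzma (SE 0.495, adjusted p = 0.831) and -0.82 for Nkg7 (SE 0.293, adjusted p = 0.561) in the edgeR quasi-likelihood F test, Benjamini-Hochberg adjusted. It was 0.56 for Klra7 and -0.19 for Gzmb. None of the 5 genes was called, where 0.168% of 1791 genes were (3 genes, 0.112% higher and 0.0558% lower). Without the control 2 library, Klra9 (adjusted p = 0.0110) and Gzma (adjusted p = 0.0297) were called. Control 1, then the only control library, has 0 UMIs of both genes in its 11 T cell-like cells, so those fits are set against a count of 0 and give no size. The class difference for Klra8 was not tested, since it has no UMI in T cell-like cells.

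Few of the cells outside these lymphocyte classes held a UMI of the genes, but together they held a sizeable part of the UMIs. Among 5757 cells of other named or unnamed classes, the C1q-high cluster with T cell genes left aside, 266 (4.62%) held a granule or Ifng UMI and 30 (0.521%) a Ly49 UMI. These cells held 821 granule or Ifng UMIs and 64 Ly49 UMIs. By gene they held 568 of the 2741 Nkg7, 175 of the 1398 Gzma, 28 of the 115 Klra9 and 25 of the 107 Klra8 UMIs. A UMI of a Cd3 gene or Ncr1, which 3.80% of all those cells held, was in 69 of the 266 (25.9%) and in 12 of the 30 (40.0%). By gene the overlap ran between 11 of 70 cells for Gzma (15.7%) and all 7 for Gzmk and all 4 for Ifng. It was 65 of 197 for Nkg7, 16 of 33 for Gzmb, 9 of 15 for Klra9, 3 of 15 for Klra8 and 1 of 4 each for Prf1, Klra4 and Klra7. In macrophage-like cells Gzma had 12 and 10 UMIs (1.91 and 1.24 CPM) in NASH and 25 and 20 UMIs (7.11 and 7.25 CPM) in control. It fell by 1.82 on the log2 scale (SE 0.390, adjusted p = 0.00346 edgeR quasi-likelihood F test, Benjamini-Hochberg), in a comparison that called 44.5% of all genes with 23.2% higher and 21.3% lower. It had passed the low-count filter (2.04 CPM there) through the control libraries alone, and was -1.78 (adjusted p = 0.000353) with no filter. With 3 times as many putative doublets left out it was not called (-1.06, adjusted p = 0.0553), and with classes set cell by cell it turned to 0.65 (adjusted p = 0.399). Nkg7 there had 21 and 30 UMIs in NASH and 24 and 17 in control, and was not called (-0.50, adjusted p = 0.240).

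The C1q-high cluster with T cell genes was almost wholly of NASH libraries, with 84 and 73 NASH droplets and 4 and 1 control droplets, so it gave no comparison by diet. Its NASH droplets held Nkg7 in 61 of 84 and 54 of 73, Gzma in 12 and 9, and Gzmk in 10 and 5. They carried NK cell or ILC1 marker RNA as well as T cell marker RNA, at summed levels of 921 and 755 CPM against 554 and 574 CPM. In T cell-like cells of the NASH libraries these were 1201 and 1469 CPM of NK cell or ILC1 markers against 3878 and 3400 of T cell markers. Unlike the T cell-like cells, the droplets held activating Ly49 UMIs, with 21 and 16 of Klra4 and 12 and 8 of Klra8, beside 7 and 24 of Klra7 and 1 and 13 of Klra9. Whether that difference from T cell-like cells exceeds the spread was not tested.

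Summed over all kept cells, the genes mix level with cell number. From these sums alone, the number of cells of a type and the RNA per cell cannot be told apart. NK cell or ILC1-like cells were 2.10% and 2.10% of kept cells in NASH and 0.459% and 1.41% in control. T cell-like cells were 2.99% and 2.90% in NASH and 0.842% and 2.04% in control. The part of these shares in the comparison of the sums was not tested. edgeR called 34.8% of 12124 genes in this comparison, 18.2% higher and 16.6% lower. Of the 8 members tested, 1 rose and 1 fell. Gzmk was called higher (adjusted p = 0.0130 edgeR quasi-likelihood F test, Benjamini-Hochberg), with 46 and 24 UMIs in NASH and 0 and 1 in control. It passed the low-count filter through NASH alone, and a fold fitted against 1 UMI is no measure of size. The ratio per UMI was 24.7 (exact 95% interval 4.29 to 990 for counting error). It lost its call without the NASH 2 library (adjusted p = 0.0508) and with the stricter cell filter (0.0632), and without NASH 1 it failed the low-count filter. Klra9 fell by 1.34 on the log2 scale (SE 0.377, adjusted p = 0.0329). It was not called without control 2 (0.137), NASH 1 (0.183) or NASH 2 (0.141), or with DESeq2 (0.0643). Nkg7 (0.79, adjusted p = 0.142), Gzmb (0.52, 0.314), Klra4 (1.26, 0.336), Klra7 (0.41, 0.716), Klra8 (-0.98, 0.123) and Gzma (0.01) were not called.

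Other genes of the same pathways were read from lists. In NK cell or ILC1-like cells 7 of 22 other granule, exocytosis and death ligand genes were tested, and 1 fell and 0 rose (median log2 fold change 0.06). The one that fell was Ccl5, a chemokine stored and released by cytotoxic cells, at 8480 and 11169 CPM in NASH and 23086 and 24761 in control (-1.29, SE 0.142, adjusted p = 6.17e-07 edgeR quasi-likelihood F test, Benjamini-Hochberg). None passed among 2 of 5 granzyme inhibitors tested (median 0.41), 10 of 16 other killer lectin-like receptors (0.15), 5 of 13 adaptors and phosphatases (-0.39), 3 of 14 transcription factors (0.60), 4 of 16 inputs to Ifng and its receptor (-0.17) and 5 of 6 class I ligands (0.06). Klra3, the only other Ly49 gene of 7 that could be tested, had -0.63 (adjusted p = 0.677). Hcst, which encodes the adaptor DAP10, had -0.69 (adjusted p = 0.136), and Tyrobp, which encodes DAP12, -0.39 (adjusted p = 0.306).

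In T cell-like cells none of the lists' genes passed. The other granule list had 8 of 22 tested (median log2 fold change 0.34, against 0.01 over all genes). Cst7, an inhibitor of the proteases that activate granzymes, came nearest at 24 and 20 UMIs in NASH and 1 and 0 in control (adjusted p = 0.05002, just above the threshold, edgeR quasi-likelihood F test, Benjamini-Hochberg). Cst7 had passed the low-count filter through NASH alone, the diet in which it is higher. Ccl5 had 5740 and 6072 CPM in NASH and 2110 and 3777 in control (1.011, adjusted p = 0.225), a sign opposite to that in NK cell or ILC1-like cells. The other lists had 1 granzyme inhibitor (median 0.09), 3 killer lectin-like receptors (-0.04), 8 adaptors and phosphatases (-0.20), 5 transcription factors (0.71), 6 inputs to Ifng and its receptor (0.45) and 6 class I ligands (0.02) tested, and no other Ly49 gene.

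Genes whose levels ran most like each member were found across 52 sums of class and library, by Pearson's r of log2(CPM + 1) over 11613 genes. The sums share libraries and classes, so r is a description. Klra4 ran most like Klra8 (r = 0.80), Ncr1 (0.79) and Klra7 (0.72), and Klra8 most like Ncr1 (0.89), Gzma (0.81) and Klra4 (0.80). Klra9 ran like Gzma (0.85), Klra7 (0.84) and Gzmb (0.83), and Klra7 like Samd3 (0.91), Klrc2 (0.88) and Klre1 (0.87). Gzma ran like Klre1 (0.89), Gzmb (0.88) and Xcl1 (0.87), and Gzmb like Cd160 (0.92), Klrb1c (0.91) and Klrc2 (0.89). Nkg7 ran like Xcl1 (0.89), Skap1 (0.88) and Lck (0.87). Gzmk ran like Cd163l1 (0.93), Izumo1r (0.80) and Cd6 (0.78). Prf1 and Ifng had under 50 UMIs and were not compared.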

How the data were processed

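The authors deposited 4 matrices of raw UMI counts over 27998 genes. The build was mm10 and the tools Cell Ranger and Seurat, per the submitters' processing notes. Tool versions, cell calling and strand use were not given in the sources used here, so overlapping and antisense genes may share reads.

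Kept cells had 200 or more genes and no more than 10% mitochondrial UMIs. Scrublet's top-scoring cells, 0.8% for each 1000 cells of a library, were removed as doublets (20 and 28 NASH cells, 14 and 17 control cells). Scanpy 1.11.5 drew Leiden clusters at resolution 1.0 (2000 variable genes, 30 components, 15 neighbours). Clusters were named from marker lists, without the 10 genes. A cluster with C1qa, C1qb and C1qc each in at least 90% of cells that was led by markers of another lineage stayed unnamed. The members and the gene lists were chosen with earlier results of these data known.

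UMIs were summed per library and class. EdgeR 4.0.16 (R 4.3.3, limma 3.58.1) was used with TMM factors, filterByExpr, the robust quasi-likelihood test and Benjamini-Hochberg adjustment over all genes tested at 0.05. The interaction had the library as block and left out genes with 0 UMIs in either class. Shares were taken as exact expectations after thinning to 1000 UMIs, rounded for intervals. Levels carry exact Poisson and shares exact Clopper-Pearson 95% intervals, and a count of 0 was given the limit of 3 counts. Genes named are the 10 members, the 3 with the smallest p in each list (a part of which the text names) and the 3 most like each member. Cd8b1, Cd3g, Vsig4, Apoe, Cd74, Tmem176a and Malat1 were named after their values were seen. The test was tried on simulated data that gave every gene the same spread, so its recovery does not carry over to genes that spread more between libraries. At the size of the NK cell or ILC1-like sums (1154 genes) it recovered 78 of 100 genes given a log2 change of 2. It called 1 of 961 unchanged genes there. At the size of the T cell-like sums it recovered 81 of 92 such genes and called 13 of 1592 unchanged ones. Alternatives were a stricter cell filter (500 genes, 5%), 3 times as many doublets, resolutions 0.5 and 2.0, clustering with the members, classes set cell by cell from Cd3 genes, Ncr1 and C1q genes, DESeq2 1.42.0, no low-count filter, each library left out and a replicate block. Sequences were read with Biopython 1.88 and figures drawn with matplotlib 3.10.9 under Python 3.11.15.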

Additional observations from a re-analysis of the deposited data

Results flagged for a closer look

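Barcodes left out by the filters, which no comparison uses, also held UMIs of the 10 genes, above the limit that a count of 0 allows. Their summed level was 199.6 and 72.9 CPM (UMIs scaled to the total of the same barcodes) in the barcodes left out of NASH 1 and NASH 2, and 21.2 and 42.6 CPM in those left out of control 1 and control 2. These were 91 and 34 UMIs in 4 and 5 barcodes of the NASH libraries, and 10 and 29 UMIs in 4 and 12 barcodes of the control libraries.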

How the results depend on the processing

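Same-numbered libraries did not deviate together (r of -0.021, 0.001, -0.025 and -0.136 in NK cell or ILC1-like, T cell-like, macrophage-like and all kept cells). With so few libraries a diet, this cannot settle whether the numbers pair them. With the replicate block 25, 40, 4290 and 3300 genes were called, against 35, 20, 4571 and 4218 without it, and no member's call changed. With the numbers crossed, an alternative added after seeing the data, 4759 were called over all kept cells. The class difference called 3 genes. Counts moved by more than 1.5 times with the stricter cell filter (22, 7, 2536 and 1973, and 8 for the class difference), cell by cell (9 and 725 in the lymphocyte classes, 12 for their difference), DESeq2 (16, 8 and 3021 in the first 3) and no low-count filter (57 in T cell-like cells, 7 for the difference). With more doublets left out or the members among the clustering genes, T cell-like calls were 13 and 9. Leaving out 1 library, which leaves 1 diet with a single library, gave 18 to 35, 13 to 66, 2783 to 4691, 995 to 4507 and 5 to 10 calls, with the 995 without NASH 2. Without the cell richest in Gzma there were 6 T cell-like calls and 1 for the difference. When cells were counted in place of UMIs, 0 genes were called in either class. When thinning was drawn at random, a Gzma call in that last test changed with the draw, so exact expectations were used.

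Some log2 fold changes that had not passed a test turned sign, and the causes were not tested. Under the stricter filter they were 0.052 for Gzmb in NK cell or ILC1-like, -0.38 for Gzma in T cell-like and 0.15 for Nkg7 in macrophage-like cells, -0.80, -0.14, -0.094 and -0.16 for Gzma, Gzmb, Nkg7 and Klra7 over all kept cells, and 0.46 and -1.17 for Gzmb and Klra7 in the class difference. Cell by cell they were -1.60 and -0.40 for Gzma and Nkg7 in T cell-like cells, 1.38 for Nkg7 (adjusted p = 0.00283 by edgeR) and, turning a called fall, 0.65 for Gzma in macrophage-like cells, and 1.15, 1.83, 0.40 and 0.56 for Gzma, Gzmb, Nkg7 and Klra9 in the class difference. Without the low-count filter they were 0.31 and 0.061 for Gzmb and Nkg7 in NK cell or ILC1-like cells, 0.24 for Gzmb in T cell-like cells and 0.072 for Gzmb in the class difference. For Gzmb in T cell-like cells they were 0.024 with more doublets left out, 0.073 with DESeq2 and 0.19 with the replicate block. DESeq2 gave -0.50 for Klra7 in the class difference, and clustering with the members gave 0.71 for Nkg7 in macrophage-like cells. Without the richest cell Gzma had -1.82 in T cell-like and -0.90 over all kept cells, and Gzmb 0.28 in the class difference. In numbers of cells, Gzma and Nkg7 had -1.24 and -0.043 in T cell-like cells.

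Leaving out 1 library moved NK cell or ILC1-like values between -2.16 and -0.017 for Gzma, -0.54 and 0.12 for Gzmb, -0.51 and -0.13 for Nkg7, -0.87 and 1.57 for Klra4, -2.53 and -0.051 for Klra7, -2.98 and -1.62 for Klra8 and -3.41 and -2.59 for Klra9, and T cell-like values between -0.96 and 7.69 for Gzma, -0.61 and 2.09 for Gzmb and -0.072 and 1.29 for Nkg7. Over all kept cells it moved Gzma between -0.72 and 1.35 and Klra7 between -0.55 and 1.82. In the class difference it moved Gzmb between -1.83 and 0.51 and Klra7 between -5.62 and 1.74. Over all kept cells, called values appeared for Nkg7 with DESeq2 (0.80) and without control 2 (1.43), for Gzmb without control 2 (1.25) and for Klra8 without control 1 (-1.35). In T cell-like cells Gzmb was called lower cell by cell (-1.50). Without thinning, granule or Ifng UMIs were in 97.4% of NASH NK cell or ILC1-like cells and in 61.6% of NASH and 70.8% of control T cell-like cells, and Ly49 UMIs in 63.3% of control NK cell or ILC1-like and 10.9% of NASH T cell-like cells. Under 30 cells of a lymphocyte class in each control library limit the precision.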
